A study of Mus musculus with 39 samples.

Results

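The lysosome was followed through 40 genes that code for its enzymes, its membrane proteins, the proton pump that acidifies it and the transcription factors that drive these genes. They were picked by symbol from the known roles of the genes, at a time when earlier results of these data were known, and are 40 of the 24421 symbols counted. A filter on low counts left 21752 genes, and 39 of the 40 passed it. RNA-seq libraries were made from MIN6, a mouse line of insulin-secreting β cells of tumour origin, kept in culture with no other cell type. Cells were taken untreated at 0 h (baseline) or after 1, 2, 6 and 24 h with the vehicle DMSO (0.1%), with SW016789 (5 µM), a compound that drives insulin hypersecretion, or with thapsigargin (100 nM), which stops SERCA from refilling the endoplasmic reticulum (ER) with Ca2+. These 13 groups held 3 libraries each, 1 from each of 3 experiments of 13 samples, as read from the sample numbers in the labels. The study's methods place RNA collection for all time points at the close of the time course.

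Lysosomes break down protein, glycans, lipids and worn organelles at an acidic pH, and in β cells they also take up surplus insulin granules. Their enzymes are made in the ER and sorted through the Golgi, so their supply starts in the organelle that thapsigargin perturbs. The vacuolar H+-ATPase (V-ATPase), a rotary pump with a cytosolic V1 part that splits ATP and a V0 part in the membrane that passes protons, acidifies lysosomes and also insulin granules. TFEB, TFE3 and MITF are related transcription factors that bind E-box motifs in the promoters of many lysosome genes. They are held in the cytosol when phosphorylated, so their activity can change with no change in their RNA.

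A total of 9150443 to 47616080 reads per library fell on genes (median 32153770). Levels are given in CPM, counts per 1000000 counts after TMM scaling, always in the order of experiments 1, 2 and 3, and means carry SD with n = 3. Fold changes are on the log2 scale with standard errors of the edgeR quasi-likelihood fit. A gene is said to have risen or fallen where its adjusted p, over all 21752 genes, was below 0.05. All 12 β cell markers examined were above 1 CPM in every group, with summed levels of 16472 to 38094 CPM, and the macrophage and other immune markers, whose cells are rich in lysosomes, summed to 1.59 to 2.42 CPM at baseline, with Adgre1 and Tyrobp at 0 reads there. The share of reads between genes was 6.17% to 36.6% per library and was above 25% in 6 libraries, all from 1 to 6 h of SW016789 or thapsigargin. The libraries were bulk samples, so fewer cells of a kind and less RNA per cell cannot be told apart.

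The E-box CACGTG, which reads the same on both strands, and the longer form TCACGTGA that contains it were searched in the RefSeq promoter windows of mouse build GRCm38.p6 (250 bases before to 50 after each start). Windows were found for 33 of the 40 members. CACGTG was in those of 13 members (39.4%), against 2187 of 27025 genes in the table (8.09%) and 9.75% of the genes that were tested. The longer form was in 6 members (18.2%), against 1.12% of all genes and 1.56% of those tested. By role, 4 of 6 proteases, 4 of 9 glycosidases and lipid hydrolases, 3 of 9 V-ATPase genes and 2 of 6 membrane proteins held CACGTG, and none of the 3 transcription factor genes did. Such a match describes the letters of a window and not a site in use. Members were picked for known lysosome roles, and many lysosome promoters are known to hold E-boxes, so a higher share could be foreseen. The genes set beside them were not matched for base composition or level. The stretches of 4 members whose values are given in full are printed because they hold the motif 2 or more times, with each E-box in capitals (Lamp1, which lacks the longer form, was added after its window was seen).
Ctsa (chr2:164833741-164833802, plus strand): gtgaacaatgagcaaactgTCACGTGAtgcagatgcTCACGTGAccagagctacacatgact
Ctsd (chr7:142387898-142388077, minus strand): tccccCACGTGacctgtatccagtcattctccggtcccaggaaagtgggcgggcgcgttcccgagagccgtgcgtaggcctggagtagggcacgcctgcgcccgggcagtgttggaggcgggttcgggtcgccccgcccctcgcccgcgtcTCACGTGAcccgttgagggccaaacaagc
Gla (chrX:134601172-134601252, minus strand): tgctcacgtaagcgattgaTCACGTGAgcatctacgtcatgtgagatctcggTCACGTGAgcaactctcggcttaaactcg
Lamp1 (chr8:13159080-13159173, plus strand): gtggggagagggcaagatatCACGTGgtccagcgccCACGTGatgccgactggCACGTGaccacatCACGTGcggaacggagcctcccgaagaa
Ctsa had 2 windows. The printed stretch is from the window at 164833523 to 164833822, which lies inside the span of the gene (164832872 to 164841032). Both motifs of this stretch were of the longer form, and their inner CACGTG began 12 bases before and 5 bases after the start. In Gla both were also of the longer form, with CACGTG beginning 227 and 194 bases before it, and those of Ctsd 245 and 98 bases before it. Lamp1 held 4 E-boxes within its last 61 bases before the start.

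In untreated cells the members spanned a wide range when counts were divided by gene length. Psap, the precursor of the saposins that help lipid hydrolases reach their substrates, stood highest at 357 ± 11.1 CPM per kb, above 99.7% of the genes tested. Lamp1, a heavily glycosylated protein that lines the lysosomal membrane, and Atp6ap2, an accessory subunit of the pump also known as the prorenin receptor, followed at 205 ± 7.99 and 202 ± 6.37. These 2 did not differ beyond their spread. The 11 measured V-ATPase genes lay between 41.8 ± 1.79 (Atp6v1h) and the level of Atp6ap2. Tfe3 was the most abundant of the transcription factors at 23.2 ± 0.125 CPM per kb, Tfeb was at 3.95 ± 0.442 and Mitf at 1.08 ± 0.171. The lowest member was Ctsh, a cysteine protease with aminopeptidase activity, at 0.458 ± 0.123, with a median of 21 reads per library, and its fold changes are too imprecise to be read (standard errors of 1.03 to 1.11 against DMSO). Atp6v0c, the proteolipid of the V0 ring, had a median of 0 reads and at most 5, did not pass the filter and was not tested. Per the study's methods only uniquely mapped reads were counted, so these few reads may not reflect its expression. Whether its reads were lost in that step was not tested.

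**Figure D1:**
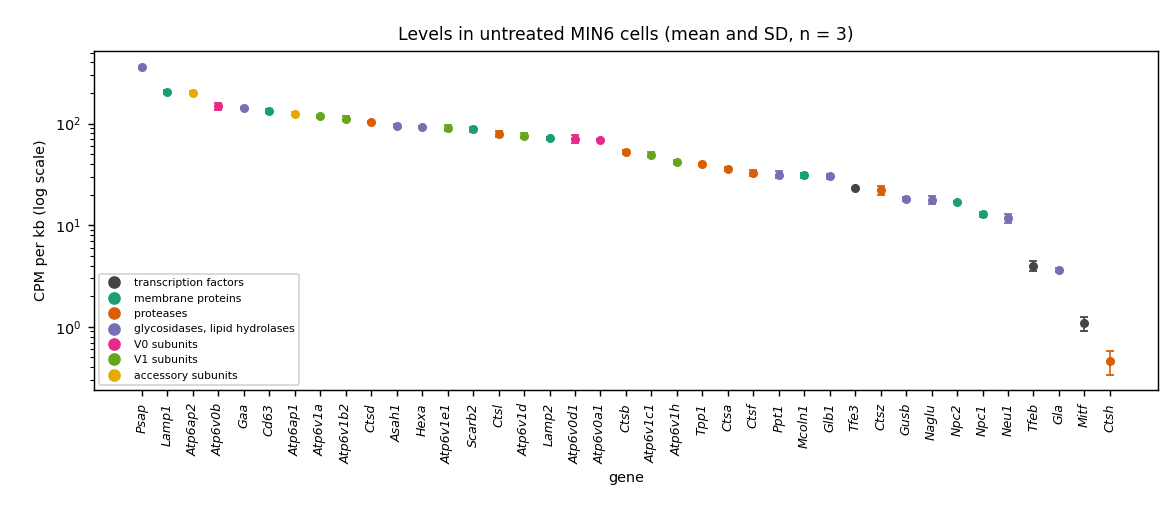
Levels of the 39 members that passed the filter in untreated MIN6 cells, in CPM per kb of gene length on a log axis (points are means and bars SD of 3 libraries, coloured by role). Psap stands at the top and Tfeb, Gla, Mitf and Ctsh form the lower end.

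The members were first compared between vehicle and untreated cells. None of the 39 was called at 1, 2, 6 or 24 h by edgeR or by DESeq2, where 0.0%, 0.00919%, 0.0% and 0.0% of all genes were called by edgeR. At an unadjusted p below 0.05 there were 0, 3, 0 and 0 members. Their median log2 fold change was -0.01, -0.01, 0.02 and 0.08 at the 4 times.

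The next question was whether a hypersecretory stimulus moves lysosome genes, with DMSO libraries of the matching time as the control. At 1 h and 2 h no member was called by edgeR, where 0.372% and 2.58% of all genes were called in either direction. The member nearest to a call was Gla, α-galactosidase A, which removes galactose from glycolipids. At 1 h its libraries were at 21.6, 16.2 and 16.8 CPM with SW016789 and at 12.0, 12.2 and 13.1 CPM with DMSO. The highest value, in experiment 1, came from the library with 36.6% of reads between genes and the lowest total count. The groups did not overlap, and the log2 fold change was 0.53 ± 0.15 (adjusted p = 0.21). At 2 h Gla was at 20.4, 20.4 and 19.5 CPM against 13.6, 18.3 and 11.8 CPM, again with all treated libraries above all DMSO libraries (0.46 ± 0.15, adjusted p = 0.109). DESeq2 called Gla at both times (adjusted p = 0.0205 and 0.0248), its 1 called member at each time. At an unadjusted p below 0.05 there were 2 members at 1 h and 3 at 2 h. Without DMSO 2 h replicate 2, 1 member was called at 2 h. In the fit with experiment and intergenic share as terms, Gaa and Neu1 were called at 2 h (log2 fold changes of 0.20 and 0.29).

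At 6 h of SW016789, Gla rose and Lamp1 fell, and these were the 2 members called, where 4.19% of all genes rose and 2.85% fell (8.66% and 6.17% of the 9938 genes with a mean of 10 CPM or more). Gla was at 21.1, 21.8 and 19.7 CPM with SW016789 against 13.2, 12.6 and 12.0 CPM with DMSO, so the lowest treated library lay well above the highest control (0.73 ± 0.15, or 1.66-fold, adjusted p = 0.00106). Lamp1 was at 321, 375 and 412 CPM against 505, 516 and 474 CPM, and the groups did not overlap (-0.43 ± 0.09, adjusted p = 0.00106). Such separation was a condition for printing the library values of called members. Experiment 1, the lowest of the 3 for Lamp1, was the SW016789 library with 26.5% of its reads between genes, against 6.80% to 7.55% in the DMSO libraries. Without the libraries above 25% the call of Lamp1 was lost and 8 members rose, namely Gla, Atp6ap2, Atp6v0d1, Atp6v1a, Atp6v1e1, Cd63, Gaa and Neu1 (log2 fold changes of 0.33 to 0.42 for the 7 other than Gla). When experiment was a blocking term, Atp6v1a, Gaa and Neu1 were called besides Gla and Lamp1 (0.25, 0.24 and 0.31), and with the intergenic share added 10 members rose and 1 fell. Lamp1 also lost its call without DMSO replicate 1 or SW016789 replicate 2, and 1 member was called then. Without SW016789 replicate 1, 5 rose and 1 fell.

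Of the other members at 6 h of SW016789, Neu1, a sialidase, was at 0.30 ± 0.10, Gaa, which breaks down glycogen, at 0.25 ± 0.09, and Atp6v1a, the catalytic subunit of the pump, at 0.25 ± 0.09 on the log2 scale, none of which passed. The 11 V-ATPase genes had a median log2 fold change of 0.14, that of all genes being 0.12. None was called by edgeR, 3 had an unadjusted p below 0.05, and DESeq2 called Atp6v1a. The 18 enzymes had a median of 0.02. The median of all genes depended on the fit. With experiment and intergenic share as terms it was 0.01, and that of the members was 0.11 (0.06 without these terms).

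At 24 h of SW016789, 5 members rose and 0 fell, where 1.95% of all genes rose and 1.06% fell (4.17% and 2.29% of genes at 10 CPM or more). They were the heparan sulfate enzyme Naglu, the aspartic protease Ctsd, the glycogen-degrading Gaa, the tetraspanin Cd63 and the accessory V-ATPase subunit Atp6ap1. Naglu was at 68.8, 80.1 and 67.9 CPM with SW016789 against 45.9, 51.7 and 43.8 CPM with DMSO (0.62 ± 0.12, 1.53-fold, adjusted p = 0.00159). Ctsd was at 332, 281 and 320.2 CPM against 201, 231 and 196 CPM (0.57 ± 0.08, 1.48-fold, adjusted p = 2.0e-05). Gaa, already among the most abundant members, was at 828, 866 and 782 CPM against 551, 602 and 576 CPM (0.52 ± 0.09, adjusted p = 0.000132). In these 3 genes each treated library lay above each DMSO library, as the rule for printing library values required. Cd63 rose by 0.51 ± 0.09 and Atp6ap1 by 0.27 ± 0.07, and the call of Atp6ap1 was lost without any 1 of the 6 libraries and in the fit of only the libraries compared. The calls of Naglu, Ctsd, Gaa and Cd63 were kept under every alternative run.

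By role, the 18 enzymes had a median log2 fold change of 0.21, with 3 higher and 0 lower. The 7 genes of the membrane and of cholesterol or ion transport had a median of 0.19, with 1 higher. The 11 V-ATPase genes had a median of -0.01, with Atp6ap1 the 1 that rose, and the median of all genes was 0.06. Several members that did not pass had all treated libraries above all DMSO libraries, among them Npc1, which exports cholesterol from lysosomes (0.27 ± 0.09), Neu1 (0.31 ± 0.10) and Hexa, which acts in ganglioside breakdown (0.22 ± 0.08). The share of all genes that separated in this way was not counted, so these members are not said to have risen. With a block for experiment, Neu1 and Tpp1, a tripeptidyl peptidase, were called as well (0.31 and 0.34), and with the intergenic share added 10 members rose. DESeq2 called 9, all higher. At 24 h the intergenic share was 6.23% to 9.09% with SW016789 and 6.55% to 7.15% with DMSO. The 12 immune markers summed to 0.669 to 2.83 CPM against 1.65 to 2.47 CPM, with 0 of 12 at 1 CPM or more in either group. The acinar and ductal markers summed to 139 to 171 CPM against 101.6 to 120.9 CPM, with 2 of 12 at 1 CPM or more in both. The β cell markers summed to 25692 to 28847 CPM against 30238 to 38094 CPM (12 of 12 in both), and the markers of other islet endocrine cells to 269.7 to 339 CPM against 343 to 359 CPM (4 against 3 of 8). Their part in the result was not tested.

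**Figure D2:**
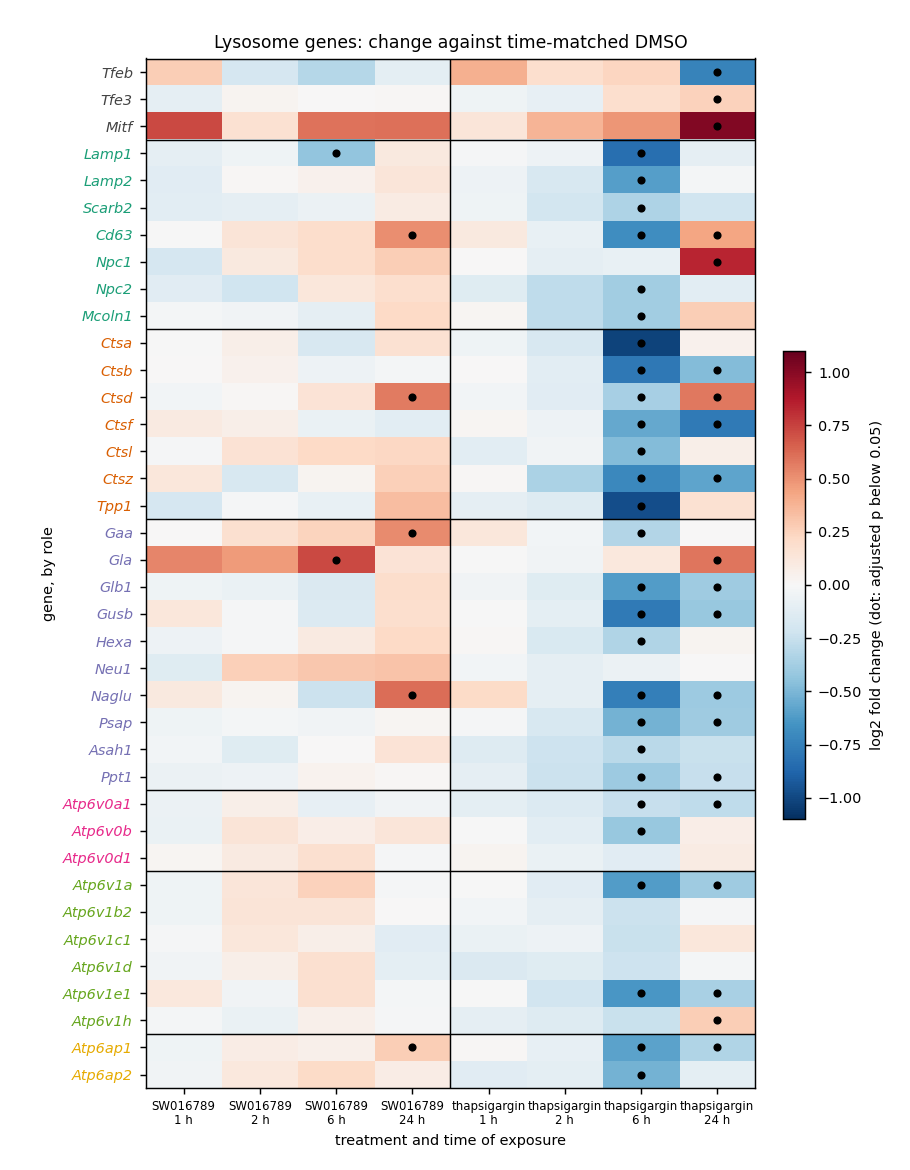
Log2 fold changes against DMSO of the same time for the members that passed the filter, other than Ctsh, in rows by role and columns by treatment and time (red higher, blue lower, black dots for an adjusted p below 0.05). The column of thapsigargin at 6 h is blue for 27 called members, and by 24 h 7 members are called higher and 13 lower.

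Thapsigargin, a standard inducer of ER stress, was set against the same DMSO libraries as SW016789, so the comparisons of both treatments share their controls. At 1 h and 2 h no member was called by edgeR, where 0.046% and 1.38% of all genes were called in either direction. At 2 h, 36 of 39 members had a negative log2 fold change, with a median of -0.11, and 10 had an unadjusted p below 0.05, against 0 at 1 h. DESeq2 called 0 members at 1 h and 2 at 2 h, Ppt1, which removes fatty acids from proteins, lower (-0.22, adjusted p = 0.0453) and the barely expressed Ctsh higher (its 2.98 on the log2 scale rests on few reads). Without DMSO 2 h replicate 1, 4 members were called lower at 2 h.

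At 6 h of thapsigargin, 27 members fell and 0 rose, where 8.73% of all genes fell and 8.06% rose. In each of the 27, every thapsigargin library lay below every DMSO library. How many of all genes separated in this way was not counted. The members' median log2 fold change was -0.38 and that of all genes was 0.30. The 9938 genes with a mean of 10 CPM or more had a median of -0.04, and 18.6% of them fell and 11.7% rose. In the fit of only the libraries compared the median of all genes was 0.05 and that of the members -0.39, with 27 lower again.

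The largest falls were in 2 proteases and a membrane protein. Ctsa (Entrez 19025, chromosome 2, 164832872 to 164841032, plus strand of mm10) codes for a carboxypeptidase that also shields β-galactosidase and neuraminidase from breakdown. It was at 63.3, 61.3 and 63.5 CPM with thapsigargin against 133, 121.2 and 128 CPM with DMSO, with little spread in either group (0.493-fold, -1.02 ± 0.08, adjusted p = 1.1e-12). Tpp1 was at 81.9, 68.3 and 67.6 CPM against 152, 141 and 136 CPM (-0.97 ± 0.11, adjusted p = 4.1e-08). Lamp1 was at 285, 262 and 293 CPM against 505, 516 and 474 CPM (-0.83 ± 0.09, adjusted p = 9.2e-09). For all 3 the highest thapsigargin library was well below the lowest DMSO library, separation being required by the rule for printing library values.

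Among the 8 proteases 7 fell, with a median of -0.63. Besides Ctsa and Tpp1 these were the cysteine proteases Ctsb (-0.79 ± 0.12), Ctsz (-0.70 ± 0.16), Ctsf (-0.56 ± 0.09) and Ctsl (-0.47 ± 0.11), and Ctsd (-0.37 ± 0.08). The exception was Ctsh, with its few reads. Of the 10 glycosidases and lipid hydrolases 8 fell. Gusb, which removes glucuronic acid, fell by 0.78 ± 0.09, Naglu by 0.75 ± 0.13 and Glb1, β-galactosidase, by 0.62 ± 0.09. Psap (-0.52 ± 0.09), Ppt1 (-0.40 ± 0.08), Hexa (-0.33 ± 0.08), Gaa (-0.32 ± 0.09) and the acid ceramidase Asah1 (-0.29 ± 0.10) fell less. Gla and Neu1 did not pass (0.11 ± 0.15 and -0.07 ± 0.10).

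Of the 7 genes of the membrane and of cholesterol or ion transport 6 fell. Cd63 fell by 0.68 ± 0.09 and Lamp2, which also serves chaperone-mediated autophagy, by 0.60 ± 0.09. Npc2, the soluble partner of Npc1 in cholesterol export, the Ca2+ channel gene Mcoln1 and Scarb2, a sorting receptor and membrane protein of lysosomes, were at -0.38 ± 0.12, -0.38 ± 0.12 and -0.34 ± 0.12. Npc1 did not pass (-0.08 ± 0.09).

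The proton pump fell in part. Of its 11 measured genes 6 fell, with a median of -0.26. They were the V1 subunits Atp6v1e1, a stalk subunit (-0.64 ± 0.08), and Atp6v1a (-0.61 ± 0.09), both accessory subunits, Atp6ap1 (-0.58 ± 0.07) and Atp6ap2 (-0.52 ± 0.09), and the V0 subunits Atp6v0b (-0.41 ± 0.10) and Atp6v0a1 (-0.26 ± 0.08). Atp6v1b2, Atp6v1c1, Atp6v1d and Atp6v1h of V1 lay between -0.24 ± 0.10 and -0.23 ± 0.09, and Atp6v0d1 was at -0.12 ± 0.11, none of them called. When experiment was a blocking term, Atp6v1b2 and Atp6v1h were called as well (both -0.24).

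The 3 transcription factor genes were not among those that fell at 6 h. Tfeb was at 9.17, 14.02 and 13.0 CPM with thapsigargin against 9.25, 11.1 and 10.3 CPM with DMSO, and the groups overlapped (0.23 ± 0.20, adjusted p = 0.394). Tfe3 was at 96.8, 96.2 and 92.7 CPM against 80.1, 85.0 and 85.9 CPM, with all treated libraries above the controls but no call (0.19 ± 0.08, adjusted p = 0.105). DESeq2, edgeR with DESeq2 size factors and the fit with block and intergenic share each called Tfe3 higher (0.22, 0.22 and 0.25). Mitf was at 6.45, 6.80 and 8.15 CPM against 3.84, 6.64 and 4.79 CPM (0.49 ± 0.30, adjusted p = 0.216).

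The thapsigargin libraries of 6 h had 8.23% to 33.95% of reads between genes, against 6.80% to 7.55% with DMSO. With both intergenic share and experiment as terms, 24 members fell and Tfe3 rose, with a median over members of -0.31 and over all genes of 0.04. Without the libraries above 25% there were 22 lower and 0 higher. Of the 27 calls 18 were kept without any 1 library and under every other alternative, among them Ctsa, Tpp1, Lamp1, Naglu, Gusb, Cd63, Atp6v1a and Atp6v1e1. Without DMSO replicate 1 the calls of Ctsl, Gaa, Hexa and Atp6v0b were lost, and those of Scarb2, Npc2, Mcoln1, Asah1 and Atp6v0a1 were lost without the libraries above 25% and without each of 3 to 5 of the 6 libraries. The stromal and endothelial markers summed to 7.60 to 70.6 CPM with thapsigargin against 6.07 to 7.28 CPM (10 against 2 of 12 at 1 CPM or more), the immune markers to 2.89 to 27.1 against 1.45 to 3.06 CPM (6 against 0 of 12), the acinar and ductal markers to 89.1 to 111.7 against 98.7 to 117.03 CPM (6 against 2 of 12), the β cell markers to 16472 to 17769 against 27728 to 30921 CPM (12 of 12 in both) and those of other islet endocrine cells to 168 to 199.8 against 282 to 309.95 CPM (4 against 3 of 8). Their part in the result was not tested.

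At 24 h of thapsigargin 7 members rose and 13 fell, where 10.1% of all genes rose and 10.7% fell. Among genes at 10 CPM or more, where nearly all members lie, 19.7% rose and 21.4% fell, against 17.9% and 33.3% of the members. The members' median was -0.02. Those that rose were Mitf, Npc1, Gla, Ctsd, Cd63, Atp6v1h and Tfe3. Those that fell were Ctsf, Tfeb, Ctsz, Ctsb, Gusb, Naglu, Glb1, Psap, Atp6v1a, Atp6v1e1, Atp6ap1, Atp6v0a1 and Ppt1. In all 20 the thapsigargin and DMSO libraries did not overlap, and the share of all genes for which this held was not counted.

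Mitf and Tfeb moved in opposite directions. Mitf was at 10.7, 8.81 and 11.1 CPM with thapsigargin against 4.33, 5.59 and 5.22 CPM with DMSO (1.02 ± 0.30, 2.02-fold, adjusted p = 0.0101). Tfeb was at 7.29, 4.66 and 6.39 CPM against 9.15, 11.7 and 9.84 CPM (-0.74 ± 0.21, adjusted p = 0.00655). The lowest Tfeb value, in experiment 2, decided its call, which was lost without that library (-0.61), and the call of Mitf was lost without DMSO replicate 1 (0.88). Tfe3, which started from a far higher level, was at 93.1, 102.8 and 102.6 CPM against 78.4, 85.4 and 86.4 CPM (0.25 ± 0.08, adjusted p = 0.0249), and its call was kept only when thapsigargin replicate 1 was the library left out.

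Npc1 (Entrez 18145, chromosome 18, 12189694 to 12236386, minus strand of mm10) was the member with the largest rise after Mitf. Its libraries were at 115.7, 121.4 and 110.2 CPM against 62.2, 65.5 and 67.0 CPM (0.83 ± 0.09, 1.78-fold, adjusted p = 2.9e-09). Gla was at 21.5, 18.05 and 18.2 CPM against 11.1, 14.3 and 13.1 CPM (0.59 ± 0.15, adjusted p = 0.00322), with its call lost without DMSO replicate 1 (0.46). Ctsd rose by 0.58 ± 0.08 and Cd63 by 0.43 ± 0.09, 2 genes that also rose at 24 h of SW016789. Atp6v1h, a regulatory subunit that couples V1 to V0, rose by 0.27 ± 0.09.

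Among the genes that stayed low, Ctsf was at 35.2, 36.9 and 41.4 CPM against 64.1, 65.1 and 64.9 CPM (-0.77 ± 0.09, adjusted p = 2.9e-08). Ctsz was at 20.2, 23.1 and 30.7 CPM against 33.6, 40.8 and 36.02 CPM (-0.58 ± 0.16, adjusted p = 0.00526), with its call lost without thapsigargin replicate 1 (-0.45). Ctsb (-0.48 ± 0.12), Gusb (-0.41 ± 0.09), Naglu (-0.40 ± 0.12), Glb1 (-0.39 ± 0.09) and Psap (-0.39 ± 0.09) followed. In the pump Atp6v1a (-0.39 ± 0.09), Atp6v1e1 (-0.35 ± 0.08), Atp6ap1 (-0.33 ± 0.07) and Atp6v0a1 (-0.28 ± 0.08) fell while the other 6 measured subunits apart from Atp6v1h lay between -0.11 ± 0.09 (Atp6ap2) and 0.13 ± 0.10 (Atp6v1c1). Without thapsigargin replicate 3, 5 members rose and 4 fell, and the calls of Naglu and Atp6v1h were each lost without any 1 of 4 of the 6 libraries. In the blocked fit, Scarb2 and Asah1 were called lower as well (-0.22 and -0.24). The calls of Npc1, Ctsd, Cd63, Ctsf and Ctsb were kept under every alternative. At 24 h the intergenic share was 6.48% to 8.86% with thapsigargin, and the immune markers summed to 1.07 to 3.92 CPM, with 0 of 12 at 1 CPM or more. The β cell markers summed to 17284 to 18196 CPM against 30238 to 38094 CPM with DMSO (12 of 12 in both), and the markers of other islet endocrine cells to 83.7 to 89.5 CPM against 343 to 359 CPM (3 of 8 in both). Their part in the result was not tested.

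**Figure D3:**
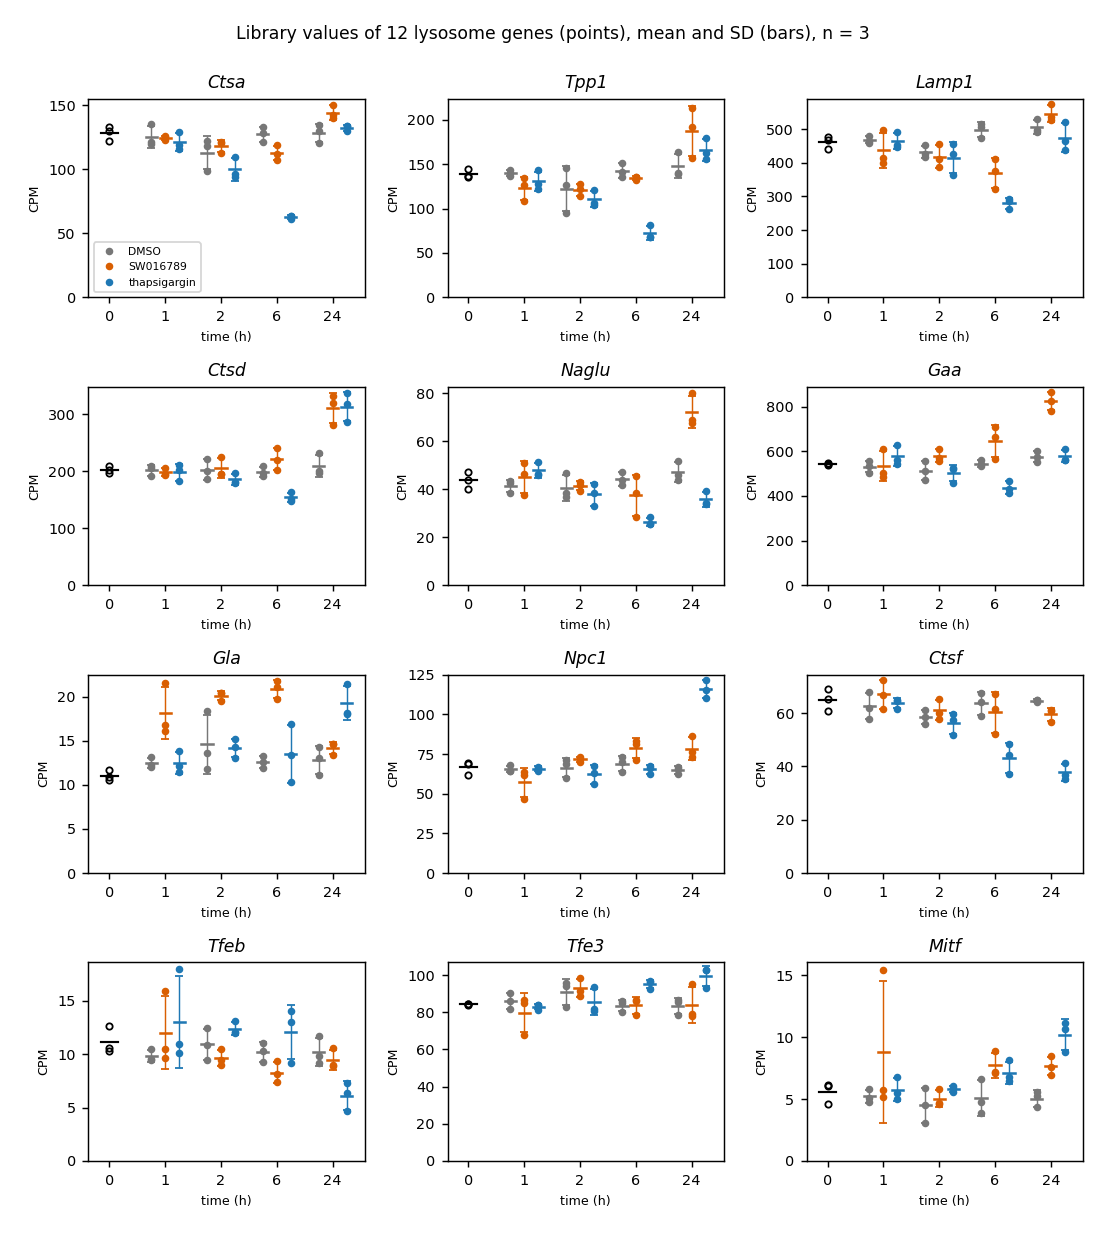
CPM of each library for 12 members by time, in grey for DMSO, orange for SW016789, blue for thapsigargin and open circles for the baseline (points are libraries, bars mean and SD, n = 3, axes from 0). The thapsigargin libraries of Ctsa, Tpp1 and Lamp1 lie below those of DMSO at 6 h, and at 24 h those of Ctsf lie below and those of Npc1 above.

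Whether the effect at 24 h differed from that at 6 h was tested directly, as the difference of both contrasts with DMSO. For thapsigargin it was higher at 24 h for 12 members and lower for 1, where 3.13% of all genes were higher and 3.15% lower. Shares among genes at 10 CPM or more, which were higher in the comparisons with DMSO, are not given for these changes of effect. The 12 were Tpp1, Cd63, Ctsa, Ctsd, Npc1, Lamp1, Mcoln1, Lamp2, Ctsl, Atp6v1h, Atp6v0b and Hexa. Tpp1, whose values at 6 h are given above, was at 179.6, 156 and 162 CPM at 24 h with DMSO at 164, 140.3 and 139 CPM (0.17 ± 0.11 at that time), a change of effect of 1.14 ± 0.16 (adjusted p = 5.0e-06). Cd63 went from 118.5, 100.8 and 92.6 CPM at 6 h, with DMSO at 174, 166 and 161 CPM, to 226, 225 and 257 CPM, with DMSO at 176, 186 and 162 CPM (1.12 ± 0.12, adjusted p = 7.8e-08). Its libraries were thus all below the controls at 6 h and all above them at 24 h. At 24 h Ctsa and Lamp1 were at 0.05 ± 0.07 and -0.09 ± 0.09 against DMSO and were not called. The changes of Ctsa, Ctsd, Npc1 and Lamp1 were 1.07 ± 0.11, 0.95 ± 0.12, 0.91 ± 0.13 and 0.74 ± 0.13. Tfeb was the 1 member with a lower effect at 24 h (-0.97 ± 0.29, adjusted p = 0.0346). Its call was kept without DMSO 24 h replicate 1 or thapsigargin replicate 1 of either time, and it was lost without any 1 of the other 9 libraries and with the intergenic share in the fit, and those of Ctsl, Atp6v0b and Hexa without any 1 of 9 or 10 of the 12. In the blocked fit, Gaa and Atp6ap2 were called higher as well (0.32 and 0.41). Without DMSO 6 h replicate 1, 6 members were called, and without DMSO 24 h replicate 3 or thapsigargin 24 h replicate 3, 7.

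For Ctsf, Ctsz, Psap, Asah1 and Neu1 the difference between the effects at 6 h and 24 h was -0.21 ± 0.13, 0.13 ± 0.22, 0.13 ± 0.13, 0.05 ± 0.14 and 0.07 ± 0.14, none of which passed. The proteases held both ends of this range, from Ctsf to Tpp1, apart from Tfeb and Ctsh. For SW016789 2 members had a higher effect at 24 h and 0 a lower one, where 0.515% and 0.938% of all genes did. Naglu went from 28.5, 38.4 and 45.6 CPM at 6 h, with DMSO at 47.4, 41.6 and 44.1 CPM, to 68.8, 80.1 and 67.9 CPM at 24 h (0.85 ± 0.18, adjusted p = 0.00392). Its lowest value at 6 h was in experiment 1, the library with 26.5% of reads between genes. Lamp1 went from 321, 375 and 412 CPM to 574, 536 and 528 CPM, with DMSO at 505, 516 and 474 CPM and 496, 531 and 492 CPM (0.54 ± 0.13, adjusted p = 0.0154). The call of Naglu was lost without DMSO 6 h replicate 1, when 0 members were called, and that of Lamp1 without any 1 library other than SW016789 24 h replicate 2 (11 of the 12). The count was 1 in 10 of these 11. When experiment was a blocking term, Ctsd was called as well (0.42).

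**Figure D4:**
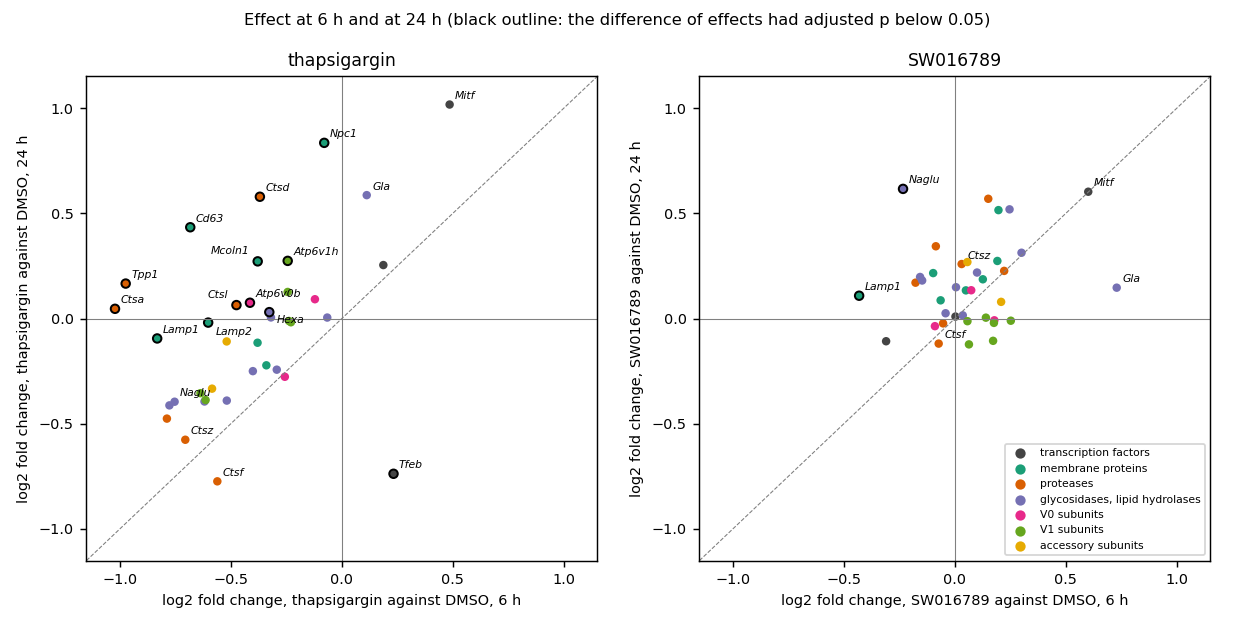
Log2 fold change against DMSO at 6 h (x axis) and at 24 h (y axis) for thapsigargin (left) and SW016789 (right), coloured by role, without Ctsh. The dashed line marks equal effects and black outlines the members whose effects differed, 13 for thapsigargin and 2 for SW016789, and most thapsigargin points lie above the line.

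The treatments were also compared with each other at matched times, which leaves the DMSO libraries out of the difference. At 1 h and 2 h no member was called by edgeR, where 0.11% and 0.667% of all genes were called in either direction, with 2 and 16 members at an unadjusted p below 0.05 and 0 and 4 called by DESeq2 (at 2 h Gla, Neu1, Atp6v1a and Ctsa, all higher with SW016789). With a block for experiment, Neu1 was called at 2 h (0.36, adjusted p = 0.04 by edgeR). With the intergenic share added, 0 members were called at 2 h and 6 had an unadjusted p below 0.05. At 6 h, 30 members were higher with SW016789 than with thapsigargin and 0 lower, where 7.54% and 4.01% of all genes were. In the comparisons with DMSO shares were higher among genes at 10 CPM or more. Those shares are not given for this comparison at 6 h or 24 h. The largest differences were in Tpp1, at 136, 136 and 132 CPM with SW016789 against 81.9, 68.3 and 67.6 CPM with thapsigargin (0.89 ± 0.11, adjusted p = 5.3e-07), and Cd63, at 161, 205 and 207 CPM against 118.5, 100.8 and 92.6 CPM (0.88 ± 0.09, adjusted p = 3.9e-09). For both genes the groups did not overlap, which the same rule for printing library values required. V-ATPase genes were among the 30, with Atp6v1a at 0.87 ± 0.09, Atp6v1e1 at 0.81 ± 0.08 and Atp6ap2 at 0.73 ± 0.09. In the blocked fit, Scarb2, Atp6v0d1 and Atp6v1c1 were called higher as well (0.26, 0.29 and 0.31). The fit of only the libraries compared called 13 of the 30, and the count was 19 and 17 without SW016789 replicates 2 and 3.

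At 24 h, 16 members were higher with SW016789 than with thapsigargin and 4 lower, where 9.78% and 8.26% of all genes were. Naglu stood out, at 68.8, 80.1 and 67.9 CPM with SW016789 against 33.8, 34.2 and 39.5 CPM with thapsigargin (1.01 ± 0.12, adjusted p = 6.2e-08). It rose with SW016789 and fell with thapsigargin. Ctsz was at 38.1, 46.7 and 47.3 CPM against 20.2, 23.1 and 30.7 CPM (0.83 ± 0.16, adjusted p = 9.4e-05). Npc1 was lower with SW016789, at 76.2, 86.3 and 72.9 CPM against 115.7, 121.4 and 110.2 CPM (-0.56 ± 0.09, adjusted p = 9.3e-06), and so were Gla (-0.44 ± 0.15), Atp6v1h (-0.29 ± 0.09) and Tfe3 (-0.24 ± 0.08). Gla was at 14.6, 13.3 and 14.6 CPM against 21.5, 18.05 and 18.2 CPM, and its call was lost without any 1 of the 6 libraries, as were those of Atp6v1h and Tfe3 without any 1 of 4 and that of Tfeb, given next, without any 1 of 3. Tfeb was higher with SW016789 (0.63 ± 0.21), where it was at 9.02, 10.6 and 8.88 CPM and did not differ from DMSO beyond the spread (-0.11 ± 0.20). Ctsd and Cd63, which rose with both, differed by -0.01 ± 0.08 and 0.08 ± 0.09 between the treatments, and neither difference was called. With a block for experiment, Scarb2 and Npc2 were called higher as well (0.31 and 0.30). Without thapsigargin replicate 2 or 3 the count of calls was 12 and 9.

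With SW016789 the transcription factor genes were not called at any time by edgeR or DESeq2, and 1 of the 3 had an unadjusted p below 0.05 at 1 h and 1 at 24 h. Tfeb was at 9.34, 7.38 and 8.11 CPM at 6 h (-0.31 ± 0.20 against DMSO) and Tfe3 at 78.3, 86.7 and 86.2 CPM at 6 h and 79.1, 94.99 and 77.9 CPM at 24 h (0.00 ± 0.08 and 0.01 ± 0.08). Mitf was at 8.89, 7.20 and 7.13 CPM at 6 h and 6.97, 8.47 and 7.56 CPM at 24 h, at both times with all treated libraries above the DMSO libraries (0.60 ± 0.30 and 0.60 ± 0.30, adjusted p = 0.229 and adjusted p = 0.478). At 1 h its highest library, experiment 1 at 15.4 CPM, was the one with 36.6% of reads between genes and the lowest total count.

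Members with and without CACGTG in their promoter window were set side by side. At 6 h of thapsigargin 11 of the 13 with the motif fell, with a median of -0.47, and 14 of the 19 without it, with a median of -0.40. At 24 h of SW016789 3 of the 13 and 2 of the 19 rose, with medians of 0.17 and 0.13. At 24 h of thapsigargin 2 rose and 4 fell of the 13, and 3 rose and 8 fell of the 19.

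Other lysosome genes were counted in 4 lists, to be read against the shares of all genes and of genes at 10 CPM or more. At 6 h of thapsigargin these were 8.06% and 11.7% for higher and 8.73% and 18.6% for lower. At 24 h they were 10.1% and 19.7% for higher and 10.7% and 21.4% for lower. Of 48 other hydrolases and their sorting factors 22 fell (45.8%) and 0 rose at 6 h of thapsigargin, with a median of -0.35. At 24 h 7 rose (14.6%) and 11 fell (22.9%), shares close to those of genes at 10 CPM or more. Arsb, an arylsulfatase, fell by 0.93 ± 0.09 at 6 h (from 237 ± 8.15 to 123.8 ± 13.5 CPM) and by 0.84 ± 0.09 at 24 h, and Hgsnat, an acetyltransferase of heparan sulfate breakdown, by 0.91 ± 0.14 at 6 h. Scpep1, a carboxypeptidase-like protein, rose by 0.87 ± 0.08 at 24 h (from 163 ± 8.13 to 297 ± 8.22 CPM). At 24 h of SW016789 6 of the 48 rose (12.5%, against 1.95% of all genes and 4.17% at 10 CPM or more) and 0 fell, with a median of 0.23. At 6 h of SW016789 3 rose (6.25%) and 4 fell (8.33%), near the 8.66% and 6.17% of genes at 10 CPM or more, and those that fell included Hgsnat (-0.72 ± 0.14) and Dpp7 (-0.73 ± 0.18).

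Of 32 other genes of the lysosomal membrane and its assembly, 9 fell (28.1%) and 2 rose (6.25%) at 6 h of thapsigargin, with Mfsd8 at -0.90 ± 0.14. At 24 h 4 rose (12.5%) and 2 fell (6.25%), both below the shares of genes at 10 CPM or more, with the chloride-proton exchanger Clcn7 at 0.72 ± 0.12 and Cln8, an ER cargo receptor for lysosomal enzymes, at 0.74 ± 0.12. Mcoln2, 1 of the 2 that rose at 6 h, had 0 reads in the DMSO libraries and a mean of 1.28 ± 1.32 CPM with thapsigargin. Vma21, which assembles the V0 part in the ER, rose by 0.66 ± 0.11 at 6 h of SW016789 (from 199.7 ± 12.5 to 315 ± 45.2 CPM), and Lmbrd1, which exports cobalamin, by 0.45 ± 0.08 at 2 h. Of 17 other V-ATPase subunits and partners 5 fell at 6 h of thapsigargin (29.4%) and 2 at 24 h (11.8%, near the share of all genes) and 0 rose at either time, with Rnasek, a small partner of the pump, lower at both (-0.98 ± 0.11 and -0.60 ± 0.11).

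Among 21 regulators of TFEB, Rheb, the GTPase that activates mTORC1, rose at 2 h and 6 h of SW016789 (0.32 ± 0.08 and 0.75 ± 0.08) and at 6 h and 24 h of thapsigargin (0.68 ± 0.08 and 0.69 ± 0.08). At 6 h it was at 138 ± 15.6 CPM with SW016789, 131 ± 12.5 CPM with thapsigargin and 82.0 ± 3.62 CPM with DMSO. Ppargc1a, a coactivator of mitochondrial and lysosome genes, rose at 2 h of SW016789 (1.45 ± 0.12, from 41.9 ± 5.60 to 114.9 ± 10.0 CPM) and at 6 h (0.77 ± 0.12). Rragd, a Rag GTPase of mTORC1 signalling, fell at 6 h of thapsigargin (-0.36 ± 0.08), and at 24 h 7 of the 21 rose (33.3%) and 1 fell (4.76%), with Flcn, which acts on Rag GTPases to hold TFEB in the cytosol, at 0.70 ± 0.20.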

How the data were processed

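Counts of read pairs per gene were deposited by the authors as raw whole numbers for 39 libraries. Per the labels and the study's methods they came from paired reads of 100 bases, aligned with STAR to mm10 and assigned by strand with featureCounts (Subread) at a mapping quality of 10 or more. Versions in the submitters' processing notes are 2.5.2b for STAR and 1.5.1 for Subread, those in the methods differ, and the labels and methods name different library kits. The 78 columns of normalized values deposited beside the counts were not used.

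Groups came from the labels. Counts were filtered with filterByExpr, scaled by TMM and fitted with the quasi-likelihood test of edgeR 4.0.16 (R 4.3.3, limma 3.58.1) over all 39 libraries and 13 groups, with Benjamini-Hochberg adjustment over 21752 genes at 0.05. Standard errors were the log2 fold change divided by the root of F. The calculation was tested on simulated data. DESeq2 1.42.0, its size factors in edgeR, a block for experiment (alone or with the intergenic share), no low-count filter, only the libraries compared and leaving out each library were alternatives. Leaving out the 6 libraries above 25% intergenic was added after the data were seen. Atp6v0c, with at most 5 reads, could not be tested.

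The number in each label was taken to mark the experiment. That same-numbered samples were treated and collected together is an inference from this numbering. Same-numbered samples had a median correlation of deviations from their group means of 0.0577 (105 of 234 pairs above 0.1), against -0.0271 for other pairs (137 of 468). Replicate libraries differed beyond counting noise in all 39 replicate pairs (lowest chi-square per degree of freedom 5.87), so that each was counted.

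The members and gene lists were chosen with earlier results of these data known. Genes given with values for each library were Tfeb, Tfe3 and Mitf and, for each comparison, the called members with the largest change whose groups did not overlap, up to 3 each way against DMSO and 2 each way elsewhere.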

Additional observations from a re-analysis of the deposited data

Results flagged for a closer look

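The effects of both treatments were compared between 24 h and 6 h through the difference of the contrasts with DMSO (edgeR quasi-likelihood test). For SW016789 the effect differed for 2 members, Naglu by 0.85 and Lamp1 by 0.54 on the log2 scale, both higher at 24 h. For thapsigargin it differed for 13 members. Tpp1 with 1.14 and Cd63 with 1.12 had the largest changes upward, and Tfeb with -0.97 was the 1 member whose effect was lower at 24 h.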

How the results depend on the processing

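Counts of called members moved by over 1.5 times as follows. DESeq2 called 1 member for SW016789 at 1 h, 1 at 2 h, 5 at 6 h and 9 at 24 h, 2 for thapsigargin at 2 h, 4 between the treatments at 2 h and 4 for the change of the SW016789 effect. With DESeq2 size factors in edgeR, 5 were called for SW016789 at 6 h. The replicate block gave 5 for SW016789 at 6 h and 1 between the treatments at 2 h. Block and intergenic share together gave 2, 11 and 10 for SW016789 at 2, 6 and 24 h and 5 for the change of its effect. The fit of only the libraries compared gave 2 and 13 between the treatments at 2 h and 6 h. Without the libraries above 25% intergenic, 8 were called for SW016789 at 6 h and 1 for the change of its effect. The causes were not tested.

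Leaving out 1 library at a time gave 0 to 1 called members for SW016789 at 2 h, 1 to 6 at 6 h and 4 to 5 at 24 h. It gave 0 to 4 for thapsigargin at 2 h, 18 to 31 at 6 h and 9 to 18 at 24 h, 17 to 33 and 9 to 17 between the treatments at 6 h and 24 h, 0 to 3 for the change of the SW016789 effect and 6 to 15 for that of thapsigargin. No called member changed its sign under any of these alternatives. The replicate block ended no call and added those named in the report. Members with few reads, Ctsh above all, limit what could be called, and with 3 libraries a group a difference that was not called is not shown to be absent.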
